A study of Arabidopsis thaliana with 3 samples.

Results

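Transcript levels in seedlings of a transgenic Arabidopsis thaliana plant overexpressing DRB2 were compared with those in wild-type seedlings, on 1 array each. The comparison covers every non-control probe set with exactly 1 gene in the platform's gene table, which is 13513 of the 22810 probe sets on the array and 13350 genes. Expression was measured on Affymetrix arrays of short oligonucleotides, where several probes form a probe set that yields 1 intensity for its transcript. The series holds 3 arrays: wild type, a plant overexpressing DRB2 (DRB2-OE below) and a plant overexpressing DRB3 (DRB3-OE). All were made from whole seedlings at 2 weeks of age, kept at 22 °C on half-strength MS medium in cycles of 16 h light and 8 h dark. Not given in the sources used here are the promoter of the transgene, the line, the number of plants pooled and the tissue in which DRB2 was raised. The design text of the series describes a different experiment, and groups were therefore taken from the genotype label of each sample.

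DRB proteins carry double-stranded RNA binding domains and partner the Dicer-like enzymes that cut small RNAs from longer precursors. Their best known member, DRB1, also called HYL1, guides DCL1 on microRNA precursors, and DRB4 works with DCL4. DRB2 is known to act beside or against DRB1 on some microRNAs and to favour translational repression of their targets, an outcome that an array of transcript levels does not read. The probe sets for DRB2 and DRB3 were not among those with 1 named gene, so the level of the overexpressed gene was not analysed here and the genotype labels stand unchecked.

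Each group is 1 array. Differences are therefore given without error or p-value, and they compare these arrays, not the genotypes over replicates. An intensity under a common floor of 109 units was set to it, and "rose" and "fell" are used of genes whose floored intensities were at least 2-fold apart. Where 1 of the values lay under the floor the fold is a bound, written "at least". Intensities are given as read, before the floor. The DRB3-OE array entered only the floor, and its values are printed beside the others. Its ratios use the same wild-type array, so likeness between the ratios of the overexpressors is no separate evidence.

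Most transcripts read alike on both arrays. Of the 13513 probe sets, 7002 were above the floor on both arrays, 683 on only 1 of them and 5828, or 43.1%, on neither. Among the 7002, 89.3% lay within 1.5-fold and 98.5% within 2-fold, with a median log2 ratio of 0.01. In all, 73 probe sets rose, or 0.54% of those compared, and 56 fell, or 0.414%, which makes 0.955% either way. Both values were above the floor for 57 of the rises and 48 of the falls, and the other 16 and 8 are bounds. At 4-fold the counts were 7 and 1. Of the 683 probe sets above the floor on 1 array only, 439 were above it in DRB2-OE and 244 in wild type. The weak end of the scale read higher in DRB2-OE, with a 25th percentile of 32.9 against 25.2 in wild type, while the 75th percentiles were 453 and 456.

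**Figure D1:**
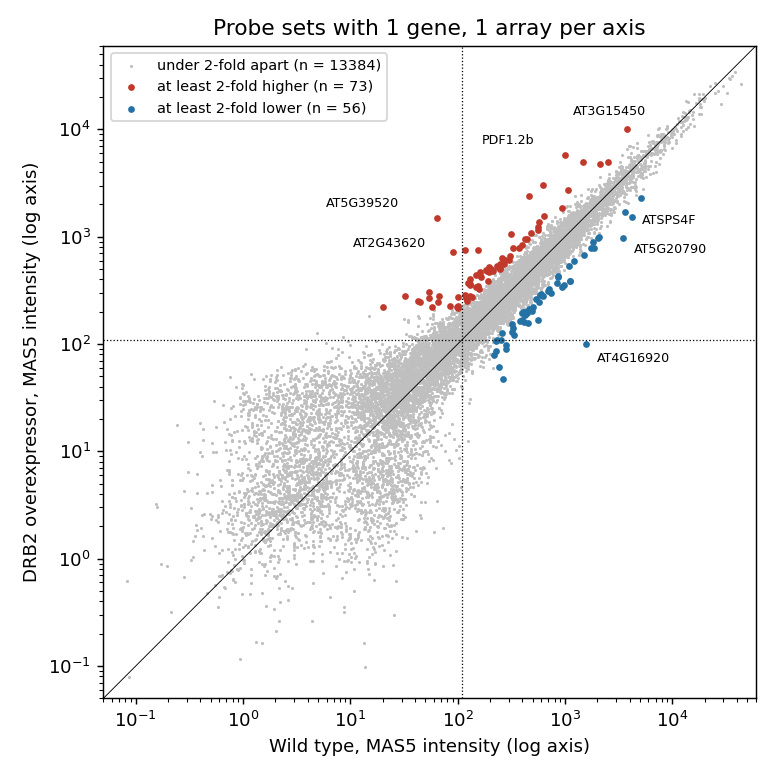
MAS5 intensity of the 13513 probe sets in wild type (horizontal, log axis) and in DRB2-OE (vertical, log axis), 1 array each, with the diagonal of equal intensity and the floor of 109 as dotted lines. The 73 probe sets at least 2-fold higher and the 56 at least 2-fold lower are coloured, and the points under the floor on both arrays spread far more widely than those above it.

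Strong and weak transcripts were both among the called ones. The called share of probe sets above the floor on both arrays was 0.755% for geometric mean intensities from the floor to 200, 2.24% from 200 to 400, 1.45% from 400 to 800, 1.30% from 800 to 1600, 1.40% from 1600 to 3200 and 0.789% above. The share of the lowest bin is held down by the floor. A pair 2-fold apart with both values above the floor cannot have a mean close to it. Probe sets that rose had a median of 189 in wild type and 503 in DRB2-OE. Those that fell had a median of 547 in wild type and 216 in DRB2-OE. At the limit of 2-fold itself, AT5G25440, AT1G04800 and AT5G48490 were the last to be counted as risen, while MCCA at 1.997-fold, AT5G66440 at 1.99-fold and AT4G15680 at 1.99-fold were not. On the lower side AT3G03770, AT4G16630 and AT5G12110 were just counted, while AT5G01720, AT5G58800 and AT1G78995 fell short at 1.99-fold, 1.99-fold and 1.98-fold.

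Raising the floor to percentile 60, an intensity of 302, left 29 of the rises and 24 of the falls past 2-fold. Of the genes described here, those that passed under all 6 other settings of floor and scaling were AT5G39520, AT4G12490, AT2G43620, PDF1.2b, PDF1.2, AT4G16260, AT1G66100, AT3G15450, AT4G27450, AT3G22850, EXO, EXLA1, AT3G62820, AT5G64100, AT4G33150 and AT1G47400 on the higher side. On the lower side they were AT4G16920, AT5G20790, ATSPS4F, AT1G72920, AT1G72900, AT5G02830, AT2G36970, AT3G44450, AER, COR15A, AT5G54130, AT4G01870, AT5G61820, ndhD and rps2.

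The gene families below are lists matched by symbol or locus, 56 in all, of which 38 stand as first written, 16 were rewritten after values were seen and 2 were added then. Among those rewritten are the defensin, cytochrome P450, sugar transporter, chitinase, glucanase, thionin, lipid transfer, peroxidase, TIR, organelle and nuclear photosystem lists. The rewritten and added lists were made knowing which genes had passed 2-fold, so their counts beside the share of all probe sets are no test. Counts and medians over all lists are descriptions of these arrays. A member above the floor in DRB2-OE alone can only have a ratio above 0. One above it in wild type alone can only lie below 0. Among the 7685 probe sets above the floor on at least 1 array, these were 439 and 244.

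Transcripts of antimicrobial and wall-degrading defence proteins were among the largest rises. Plant defensins are small secreted antifungal peptides. The probe set of PDF1.2b read 999 in wild type, 5824 in DRB2-OE and 7422 in DRB3-OE. That of PDF1.2 read 623, 3058 and 5806 in the same order. The probes for PDF1.2b belong to a set designed against several similar sequences, so these may not be separate readings. PDF1.4 read 32.3, 281 and 359, at least 2.59-fold higher in DRB2-OE. Wild type was the lowest of the 3 arrays for all of these. Of 5 defensin probe sets, all above the floor, 3 rose and 0 fell, where 0.54% of all probe sets compared rose. PDF2.1 and PDF2.5 had log2 ratios of -0.20 and -0.63. The median over the 5 was 1.37, beside 0.02 over all 7685 probe sets above the floor on at least 1 of the arrays compared.

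Chitinases and beta-1,3-glucanases cut the polymers of fungal cell walls. AT2G43620, of the chitinase family, read 116 in wild type, 748 in DRB2-OE and 3087 in DRB3-OE, which puts it 6.44-fold above wild type in DRB2-OE. It was the single chitinase to rise among 15 probe sets, beside 0.54% of all that rose, and 8 of the 15 were above the floor on at least 1 array. Of these 8, 7 had ratios above 0, where 52.8% of all such probe sets did, and their median log2 ratio was 0.68. Other members stayed under 2-fold on floored values, with AT1G02360 at 97.9, 201 and 356 and AT2G43590 at 277, 487 and 822. AT4G16260 was the single beta-1,3-glucanase to rise among 4, from 464 to 2415, and read 3996 in DRB3-OE. The other glucanases above the floor, AT2G01630 and AT2G27500, had log2 ratios of 0.59 and 0.15.

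Lipid transfer proteins carry lipids or lipid-like signals across the cell wall. Of 11 probe sets, 4 rose and 0 fell, beside 0.54% of all that rose. The list was rewritten knowing which genes had passed 2-fold, so its counts are a description. AT4G12490 read 89.6 in wild type, 717 in DRB2-OE and 2998 in DRB3-OE, at least 6.59-fold higher in DRB2-OE. AT1G62510 read 189, 475 and 527, and AT4G22470 read 42.7, 254 and 421. AT5G48490 differed in pattern, at 2496, 5004 and 931, so that it was highest in DRB2-OE and lowest in DRB3-OE. Over the 10 probe sets above the floor the median log2 ratio was 0.53, with 9 above 0, beside 52.8% over all probe sets above the floor. Thionins are small toxic peptides of the cell wall and vacuole. AT1G66100 of that family read 1478, 4979 and 2651, a 3.37-fold rise, with its own highest reading on the DRB2-OE array. The other thionin probe sets took both sides, THI2.1 at 34.6, 160 and 159 and THI2.2 at 172, 61.1 and 56.6, both under 2-fold on floored values.

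Class III peroxidases are secreted enzymes that form or loosen wall polymers with hydrogen peroxide. Of 55 probe sets in this family 4 rose and 0 fell, beside 0.54% of all that rose, and 22 lay under the floor on both arrays. AT5G64120 read 162 in wild type, 471 in DRB2-OE and 1028 in DRB3-OE. Prx37 read 231, 538 and 1022. AT5G66390 read 149, 341 and 807. AT5G64100 was the strongest of the risen members, at 560, 1241 and 1603. All 4 were lowest in wild type and highest in DRB3-OE. Of the 33 probe sets above the floor on at least 1 array, 30 had ratios above 0, or 90.9%, where 52.8% of all such probe sets did. Among the 30, AT5G39580, AT1G34510, AT5G14130 and AT5G15180 were under the floor in wild type alone, which fixed their sign. The median over the 33 was 0.42, and over all 55, with those under the floor at 0, it was 0.09. With the floor at percentile 60 the signs of the 33 were 20 above 0 and 1 below, with the rest at 0.

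**Figure D2:**
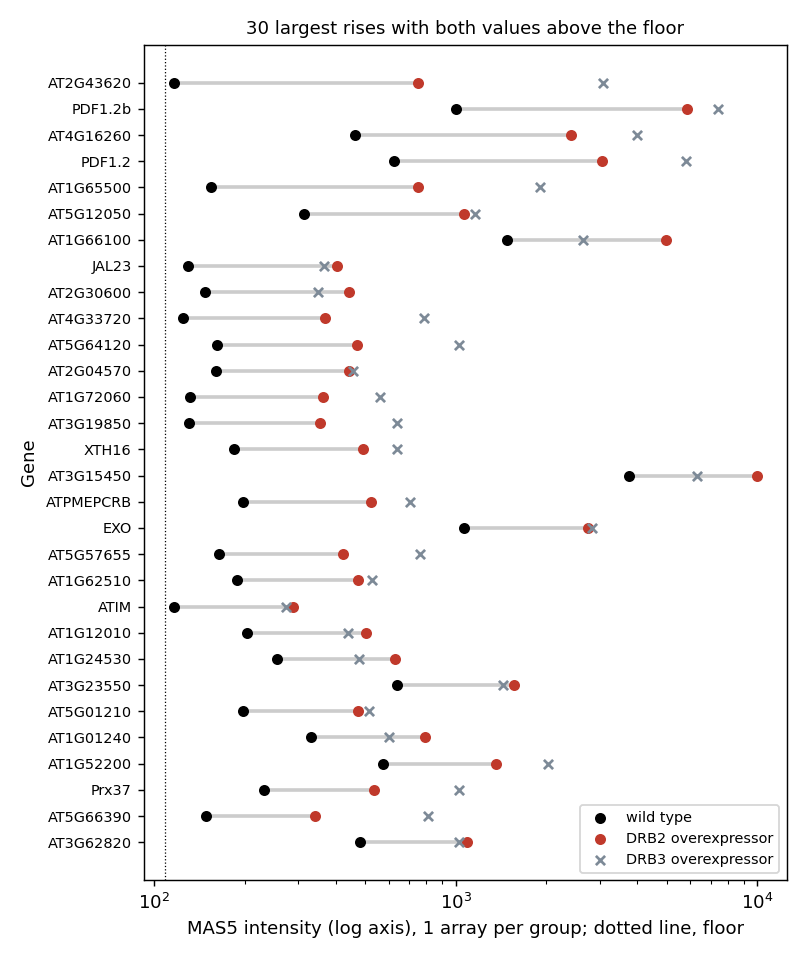
MAS5 intensity (log axis) on each of the 3 arrays for the 30 probe sets with the largest rises from wild type to DRB2-OE and both values above the floor (dotted line). The wild-type point is the lowest of the 3 in every row, and DRB3-OE lies on either side of DRB2-OE. That wild type lies below DRB2-OE follows from the choice of rows.

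The lists of wall-loosening proteins held 1 rise. Xyloglucan endotransglucosylases cut and rejoin the hemicellulose that ties cellulose fibrils. XTH16 read 184 in wild type, 494 in DRB2-OE and 640 in DRB3-OE, a 2.68-fold rise. It was the single rise among 9 members, beside 0.54% of all probe sets compared. XTH18, at 196, 371 and 571, stayed under 2-fold. All 5 members above the floor had ratios above 0, where 52.8% of all such probe sets did, with a median of 0.65. XTH20 among them was under the floor in wild type alone, which fixed its sign. Expansins loosen the wall without cutting it. Of 14 members 0 passed 2-fold, beside 0.955% of all. Ratios were above 0 for 7 of the 8 above the floor, beside 52.8% of all such probe sets, with a median of 0.30. Among the 7, EXPA9 and EXPA20 were under the floor in wild type alone, which fixed their sign. With the floor at percentile 60, ratios were above 0 for 3 expansins and below 0 for 1, with a median of 0. The expansin-like gene EXLA1, outside that list, rose from 428 to 958 and read 1277 in DRB3-OE. EXO, which takes part in brassinosteroid-dependent growth, read 1067, 2754 and 2821, close to equal in both overexpressors.

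Some of the risen genes encode pectin enzymes or inhibitors of such enzymes, for which no list was made and the other members were not counted. ATPMEPCRB, for a pectin methylesterase, read 197 in wild type, 522 in DRB2-OE and 708 in DRB3-OE. A further pectin methylesterase, AT3G43270, read 130, 281 and 187. AT3G62820, an inhibitor of pectin methylesterase or invertase, went from 483 to 1094 and read 1026 in DRB3-OE. All were named by the size of their change, as were AT5G62360 and AT4G25260, inhibitors of the same family, which rose 2.18-fold and 2.07-fold. WES1, of the GH3 family that joins auxin to amino acids, rose 2.04-fold, from 272 to 555, with 540 in DRB3-OE. AT1G12010, for an enzyme of the last step of ethylene synthesis, rose 2.47-fold, from 204 to 504, and read 439 in DRB3-OE.

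Sugar and starch genes took both directions. ATSPS4F, for sucrose-phosphate synthase, the enzyme that commits carbon to sucrose, read 4173 in wild type, 1532 in DRB2-OE and 619 in DRB3-OE. AMY1, for an alpha-amylase that degrades starch, read 54.2, 307 and 220, at least 2.83-fold higher in DRB2-OE. SWEET1, for a glucose transporter, rose from 245 to 510, with 439 in DRB3-OE. Wild type was thus at one end of the range for each of the 3 genes. Among 5 probe sets of the sucrose and starch list 2 rose and 1 fell, beside 0.54% and 0.414% of all. DPE1 and APL3 had log2 ratios of -0.43 and -0.51, the latter with DRB2-OE under the floor. Of 14 sugar transporter probe sets SWEET1 alone passed 2-fold, beside 0.955% of all. Ratios were below 0 for 4 of the 7 above the floor, beside 47.2% of all such probe sets.

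Aluminium-induced proteins with YGL and LRDR motifs are named for their response to that metal, and their genes were among the strongest transcripts to rise. AT3G15450 read 3753 in wild type, 9992 in DRB2-OE and 6303 in DRB3-OE. Its reading in DRB2-OE was the highest of any risen probe set. AT4G27450 read 2141, 4774 and 4474, and AT3G22850 read 563, 1144 and 877. AILP1 and AT5G43830 had log2 ratios of 0.53 and 0.18. The list of 5 was put together after these values were seen, so its count of 3 rises is a description.

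Iron genes were few on the measured list. BHLH101, for a transcription factor of the iron deficiency response, read 101 in wild type, 277 in DRB2-OE and 239 in DRB3-OE, at least 2.55-fold higher in DRB2-OE. AT3G13610 and PYE, the other measured members of 3, had log2 ratios of 0.57 and 0.42. Outside the list AT1G47400, for an IRONMAN peptide that promotes iron uptake, rose 2.15-fold, from 446 to 958, with 1353 in DRB3-OE. Wild type gave the lowest reading for both risen genes.

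Single rises occurred in several families, large and small. JAL23, a jacalin-related lectin, rose 3.12-fold, from 130 to 405, while JAL22, JAL33 and JAL34 had log2 ratios of -0.34, 0.31 and 0.02. BGLU45, for a beta-glucosidase, was at least 2.57-fold higher, the single rise among 20 such probe sets, beside 0.54% of all. Of the 11 beta-glucosidases above the floor 10 had ratios above 0, beside 52.8% of all such probe sets, with a median of 0.30. CYP71B23 rose 2.23-fold as the single one of 24 cytochrome P450 probe sets, beside 0.54% of all that rose. The median over the 12 above the floor was 0.11. WRKY22, for a factor of immune signalling, rose 2.07-fold, from 159 to 329, and read 175 in DRB3-OE. It was the single rise among 6 WRKY probe sets. Of the 5 above the floor, 2 had ratios above 0 and 3 below, with a median of -0.004. AT1G77640, for an AP2/ERF factor, read 53.6, 271 and 114. WRKY22 and AT1G77640 were high on the DRB2-OE array alone. AT5G39520, with the largest ratio of all rises, read 64.7, 1495 and 1282, at least 13.8-fold higher in DRB2-OE.

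Immune receptor genes with a TIR domain were among the largest falls. TIR domains start cell death and defence signals once the receptor has sensed a pathogen. AT4G16920 read 1558 in wild type, 101 in DRB2-OE and 92.2 in DRB3-OE, at least 14.3-fold lower in DRB2-OE. AT1G72920 read 936, 342 and 139. AT1G72900 read 1510, 680 and 1207. Wild type was the highest of the 3 arrays for each. Of 11 probe sets in the list 3 fell and 0 rose, beside 0.414% of all that fell, 5 lay under the floor on both arrays, and 5 of the other 6 had ratios below 0, with a median of -0.98 over the 6, where 47.2% of all probe sets above the floor had such ratios. The list was written after these values were seen, from the chromosome clusters that hold the genes above, so its count describes those clusters and not the TIR family. AT4G16920 belongs to a family of near-identical copies and was read by a single probe set.

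Of the TIR genes that fell, a pair lay close together on the genome. AT1G72900 and AT1G72920 are within 3 genes of each other in the order of the RefSeq table of assembly TAIR10.1. Of their measured neighbours, AT1G72890 read 540 in wild type, 309 in DRB2-OE and 213 in DRB3-OE, AT1G72940 read 986, 679 and 353, and AT1G72870 read 38.8, 115 and 58.5. None of these neighbours passed 2-fold in DRB2-OE on floored values. Among 125 called nuclear genes placed in that order, 6 lay within 3 genes of another called gene, in 3 pairs. The members of each pair moved the same way. The window was chosen after values were seen. How many such pairs the same number of other genes would give was not counted, so the 3 pairs are a description. Another pair was AER, for an alkenal reductase that removes reactive aldehydes, and AT5G16980 of the same family, at 1734, 788 and 1288 and at 251, 110 and 153. The next copy, AT5G16990, read 483, 550 and 536 and did not share their fall. The third pair was that of the peroxidase genes AT5G64100 and AT5G64120, between which AT5G64110 read 136, 205 and 110. Related copies that lie side by side can share probes, so the members of a pair may not be separate readings.

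AT5G20790, of the phosphate starvation list, fell furthest among probe sets that stayed above the floor on both arrays. It read 3452 in wild type, 967 in DRB2-OE and 327 in DRB3-OE, 3.57-fold lower in DRB2-OE. It was the single measured gene of the 21 on that list. AT3G04000, for an aldehyde reductase of the chloroplast, read 557, 166 and 498, lower in DRB2-OE than on both other arrays. AT3G50900, at 492, 203 and 577, was also lowest in DRB2-OE. ORA47, for an AP2/ERF factor that promotes jasmonate synthesis, read 425, 186 and 66.1. STZ, a zinc finger repressor of the same list of touch, wound and rapid stress genes, read 1417, 743 and 271, just under 2-fold in DRB2-OE. CML38, the third measured member, went the other way at 170, 322 and 292, also under 2-fold.

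Further falls came from regulators and enzymes of several kinds. COR15A, a cold-induced gene whose product protects chloroplasts, read 1211 in wild type, 588 in DRB2-OE and 455 in DRB3-OE. COR15B and COR47 of the same list, at log2 ratios of -0.47 and 0.49, lay on either side of 0. XCT, for a nuclear protein that acts on the circadian clock and on small RNA production, read 379, 163 and 207. AT3G44450, also called BIC2, an inhibitor of blue light receptors, read 628, 278 and 286. AT5G02830 and AT3G22150, of the pentatricopeptide repeat family that processes organelle transcripts, fell 2.85-fold and 2.21-fold. AT2G36970, for a UDP-glycosyltransferase, fell 2.46-fold, from 744 to 302. AT3G10930, for a small signalling peptide, read 454, 157 and 152. Wild type was the highest array for each of the fallen genes of this group.

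**Figure D3:**
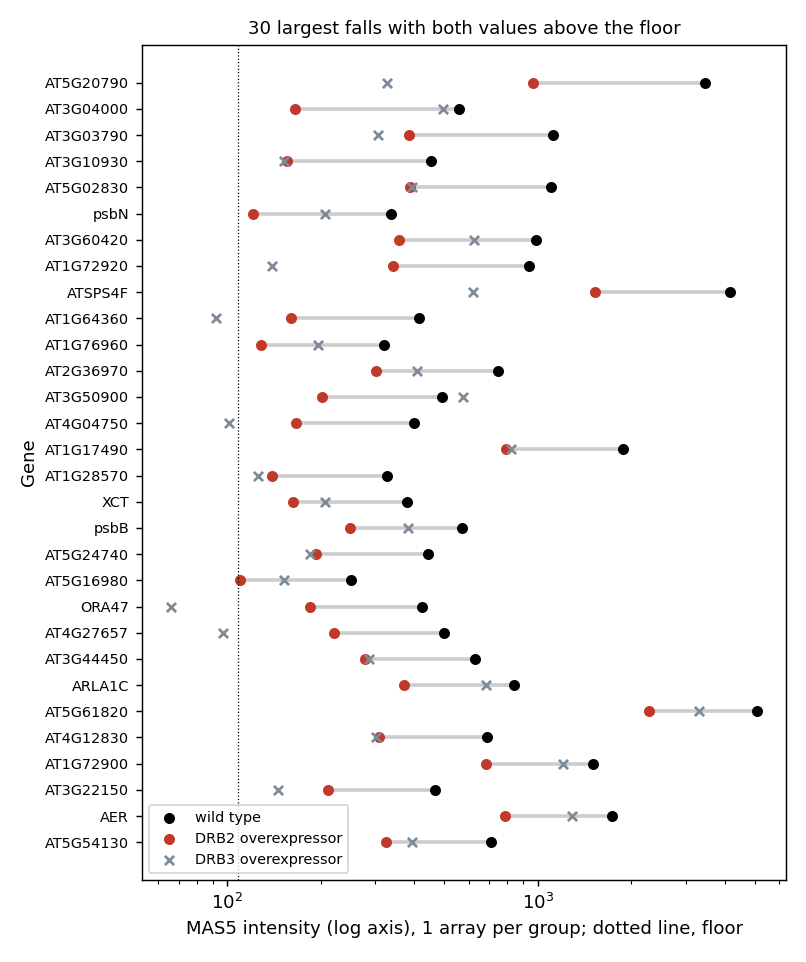
MAS5 intensity (log axis) on each of the 3 arrays for the 30 probe sets with the largest falls from wild type to DRB2-OE and both values above the floor (dotted line). The wild-type point is the highest of the 3 in every row except that of AT3G50900, where DRB3-OE read 577 against 492 in wild type. That wild type lies above DRB2-OE follows from the choice of rows.

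Genes of the plastid genome lay below wild type across nearly all their complexes. Of 69 probe sets 4 fell, where 0.414% of all probe sets compared did, and 0 rose. Ratios were below 0 for 60 of the 65 above the floor, or 92.3%, where 47.2% of all probe sets above the floor were. The falls were those of psbN, which read 337 in wild type, 121 in DRB2-OE and 206 in DRB3-OE, of psbB at 572, 248 and 383, of ndhD at 3651, 1694 and 2220, and of rps2 at 2079, 1004 and 1887. For each of the 4 genes DRB2-OE was the lowest of the 3 arrays. By complex, the 15 genes of the photosystem II group had a median log2 ratio of -0.54 and the 6 of the ATP synthase one of -0.54. The 15 ribosomal protein genes were all below 0, with a median of -0.29. Over members above the floor, the NADH dehydrogenase-like complex had a median of -0.43 (8 genes), cytochrome b6f one of -0.33 (5 genes), photosystem I one of -0.12 (5 genes) and the plastid RNA polymerase one of -0.80 (3 genes).

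The plastid genes differed widely among themselves. Within photosystem II the ratios ran from -1.47 for psbN to 0.06 for psbA, which read 9114, 9509 and 3675 on the wild-type, DRB2-OE and DRB3-OE arrays. psbC read 3861, 2066 and 3870, and psbK read 2926, 1846 and 4553, so both were lowest in DRB2-OE. Among the ATP synthase genes atpH read 5375, 2807 and 3221 while atpE, the strongest, read 38162, 34363 and 28578. rbcL, for the large subunit of the carbon-fixing enzyme Rubisco, had a log2 ratio of -0.33. Of 23 mitochondrially encoded probe sets 0 passed 2-fold, where 0.955% of all did, and 15 lay under the floor on both arrays. The other 8 had a median of -0.23, with 7 below 0, beside 47.2% of all probe sets above the floor. Of 8 probe sets for photosystem and light-harvesting proteins encoded in the nucleus, 7 had ratios above 0, beside 52.8% of all. Their median was 0.14, from LHCB4.3 at -0.44 to PSBY at 0.45, and 0 passed 2-fold.

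**Figure D4:**
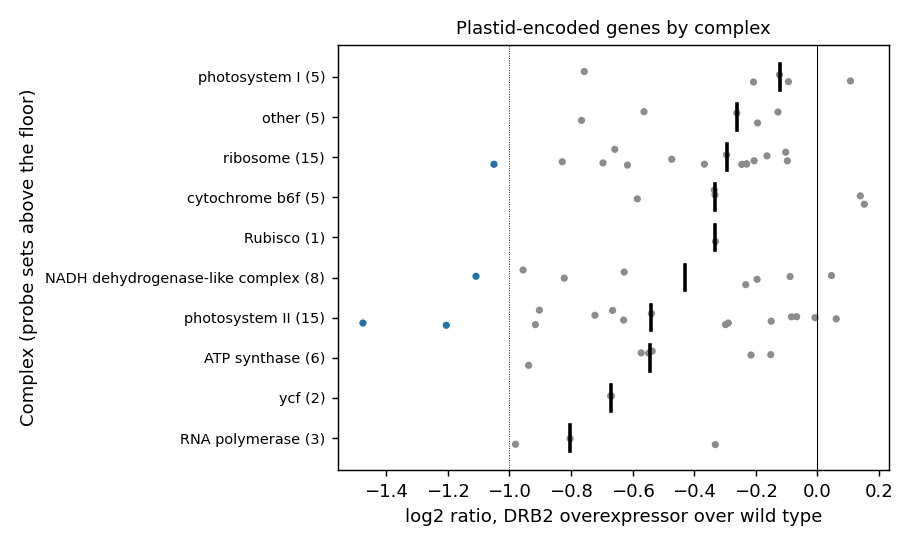
Log2 ratio of DRB2-OE over wild type for the 65 of 69 plastid-encoded probe sets above the floor on at least 1 of the arrays, grouped by complex with their number in brackets, where a black bar is the median of the group, the dotted line marks 2-fold lower and blue points passed it. Medians run from -0.80 for the RNA polymerase to -0.12 for photosystem I.

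Several classes of control probe sets were also lower in DRB2-OE. The 25S ribosomal RNA control read 12982 in wild type, 3603 in DRB2-OE and 11339 in DRB3-OE. The poly(A) spike-ins were lower than in wild type for 25 of 27 probe sets in DRB2-OE, by a median of 4.36-fold, and the hybridisation controls for 18 of 18, by a median of 1.36-fold. The remaining 17 controls, housekeeping transcripts and others, were lower for 8 and had a median log2 ratio of 0.02. The ratio of 3′ to 5′ signal was lower in DRB2-OE than in wild type in 6 of 6 pairs of housekeeping probe sets. The margin varied. One actin pair gave 13.0 in wild type, 6.45 in DRB2-OE and 5.01 in DRB3-OE, and one ubiquitin pair 4.66, 4.61 and 3.89. The part of these control differences in the plastid result, or in any other rise or fall given here, was not tested. In whole seedlings, fewer cells of a type and less RNA per cell cannot be told apart. The single measured leaf marker, RCA, read 33718 in wild type, 29895 in DRB2-OE and 21690 in DRB3-OE, and the root hair marker EXPA18 read 184, 278 and 439. EXPA7, the other measured root marker, read 52.1, 95.1 and 158. None of 6 flower and 9 seed storage markers was measured by a probe set with 1 gene, and the part of tissue make-up in these results was not tested.

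Genes that stand closest to the function of DRB2 could be read only in small part. Of 25 genes for small RNA and DNA methylation machinery, 2 were measured. AGO7, for the Argonaute of trans-acting small RNAs, read 106 in wild type, 117 in DRB2-OE and 123 in DRB3-OE, and SE, a partner of the microRNA processing complex, read 241, 219 and 263. Of 52 targets of microRNAs and trans-acting small RNAs 6 were measured, and 0 passed 2-fold on floored values, beside 0.955% of all probe sets compared. APS4, for an enzyme of sulfate assimilation targeted by miR395, read 1037, 1923 and 1922. SNZ, a flowering repressor targeted by miR172, read 195, 72.0 and 56.1, at least 1.79-fold lower in DRB2-OE. Its wild-type reading is too close to the floor for a floored ratio to reach 2-fold. The other targets above the floor were CCS, ARPN and PHV, with log2 ratios of -0.45, 0.27 and -0.23. The targets thus lay on both sides of wild type.

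Several further lists held 0 probe sets past 2-fold, where 0.955% of all compared passed it. Among all probe sets above the floor on at least 1 array, 52.8% had ratios above 0. UDP-glycosyltransferases, which attach sugars to hormones and metabolites, had 12 ratios above and 14 below 0 among the 26 above the floor, and 0 of the 47 on the list, which takes genes by UGT symbol, passed 2-fold. AT2G36970, given above, carries no such symbol in the tables and is not among them. Glutathione S-transferases had 3 above and 6 below among 9, and serine carboxypeptidase-like proteins 10 above and 5 below among 15, with 0 past 2-fold in both families. Of 10 autophagy genes 8 had ratios above 0, with a median of 0.11 and 0 past 2-fold. Salicylic acid markers gave 0 of 3 past 2-fold, with log2 ratios of -0.41 for WRKY53, -0.32 for GRX480 and 0.20 for SAG101. Across all lists, 38 of the 129 called probe sets had a place in at least 1.

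Genes read by several probe sets show how far readings of the same transcript can part. There were 152 such genes, and 44 had at least 2 probe sets above the floor. The ratios of all of a gene's probe sets shared their sign in 21 of the 44. The median distance from lowest to highest was 0.36 on the log2 scale, with a 90th percentile of 0.76. Probe sets under the floor on both arrays entered at 0 and so counted as not sharing a sign. That was so for nad1, whose probe sets above the floor had log2 ratios of -0.33 and -0.53. For 6 genes 1 probe set passed 2-fold. The second one lay under the floor on both arrays, and so had no readable ratio, for 3 of them. For the other 3 it stayed under 2-fold with the sign of the called one, at a log2 ratio of 0.81 for AT2G30600, -0.59 for AT2G02410 and -0.31 for AT5G54130. AT2G30600, of the BTB/POZ family, read 148, 442 and 350 with the called probe set and 968, 1694 and 1210 with the other. AT5G54130 fell from 706 to 324 with one probe set and read 135 and 103 with the other.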

How the data were processed

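Each deposited value is the linear intensity of a probe set on an array. Per the submitters' processing notes, MAS5 was used. Per the labels' protocols, biotinylated cRNA was made from 10 ug of total RNA. The labels also name a dye, Cy3, which that protocol does not use. Not given in the sources used here are its version and target. All arrays had a 2% trimmed mean of 500.05 and were not rescaled. No detection calls were used, and precision is limited by the number of arrays.

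The floor was percentile 40 of the 22746 non-control probe sets, averaged over the 3 arrays. Log2 ratios were taken after it was applied. Another 8730 non-control probe sets had no gene listed and 503 had several, and these were left out of the comparison. Names came from the platform's annotation and a RefSeq table of assembly TAIR10.1, which matched 13436 of 13513 probe sets.

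The genes named were the 30 largest rises and falls with both values above the floor, the 15 largest bounds each way, up to 4 members of each list and 3 probe sets on either side of 2-fold. Plastid complexes, neighbours, further list members and probe sets of genes with several were named after their values were seen. EXLA1, AT1G47400, AT4G33150, AT3G43270, AT5G62360, AT4G25260 and WES1, rises outside the first 30, and the fall of AT4G01870 were too. The members, lists and comparison were chosen with earlier results of these data known. Of 56 lists, 16 were rewritten and 2 added after values had been printed, since some patterns had matched wrong genes or none; these later rules were written knowing which genes had passed 2-fold. The window of 3 genes, the intensity bins, the complexes, the 1.5-fold limit for a moved median and the count over 6 settings were also chosen then. Of the lists, 13 had 0 measured probe sets.

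The alternatives changed the floor (percentile 20 or 60, or a pseudocount of 16), the scaling (median centring, quantiles, or loess with span 0.3), the rule for probe sets and the threshold (1.5-fold or 3-fold). The steps were tested on simulated data. A search of promoters for motifs was not run, since no promoter sequences were used here. Work was done in Python 3.11.15 with pandas 2.3.3, numpy 2.4.6, statsmodels 0.14.6, scipy 1.17.1 and, for plots, matplotlib 3.10.9.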

Additional observations from a re-analysis of the deposited data

Results flagged for a closer look

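AT5G48490, for a lipid transfer protein, had log2 ratios to wild type on opposite sides of 0 in the overexpressors, 1.00 in DRB2-OE and -1.42 in DRB3-OE. AT5G12110, for a subunit of elongation factor 1, did the reverse, at -1.01 and 1.08. With 1 array per group, neither difference was tested.

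Probe sets outside the comparison also differed between the arrays. Of 8730 probe sets with no gene listed, 78 passed 2-fold upward and 75 downward in DRB2-OE, 1.75% in all. Of 503 with several genes, 4 were higher and 5 lower, or 1.79%. Among the 13513 probe sets with 1 gene the share was 0.955%. In these classes 6298, 286 and 7685 probe sets were above the floor on at least 1 of the arrays compared. A probe set under it on both has a ratio of 0 and cannot pass, so the shares are not over like sets.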

How the results depend on the processing

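The counts of 73 rises and 56 falls rest on how weak signals are treated. They were 437 and 164 with the floor at percentile 20, 29 and 24 with it at percentile 60, and 679 and 283 with a pseudocount of 16 and no floor. At 1.5-fold they were 457 and 391, and at 3-fold 10 and 3. Centring, quantile normalization and loess gave 66 to 69 rises and 58 to 60 falls, and the rules for probe sets gave 72 rises and 53 to 56 falls. Of the main calls, 26 rises and 21 falls passed 2-fold under all 6 settings of floor and scaling. The median of the jasmonate and ethylene list, 1.42 over 4 probe sets, was 2.25 with the floor at percentile 20, 2.03 with the pseudocount and 0.55 without the probe sets that can bind related transcripts, one of which reads PDF1.2b. The median of the 5 defensins, 1.37, was 2.29 at percentile 20, 2.27 with the pseudocount, 0.58 without such probe sets and 0 with the floor at percentile 60. The median of the 3 thionins, 0.55, was 1.75 with the floor at percentile 20 and 1.74 with the pseudocount. Of 201 named probe sets, 56 calls were lost with the floor at percentile 60 and 3 to 6 under the pseudocount or another scaling. No named ratio past 2-fold changed sign under the 6 settings. The cause of these shifts was not tested beyond the change of setting itself. No paired analysis was possible because each group is 1 array.

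Replicates are absent, so the spread between seedlings of one genotype is unknown and no difference can be set against it. Values near the floor carry the least information.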

Other observations

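Of the called probe sets, AT3G15450 and AT5G61820 were the strongest on the higher and the lower side by their higher reading, at 9992 in DRB2-OE and 5097 in wild type. AT5G61820 read 2280 in DRB2-OE and 3310 in DRB3-OE. AT4G01870 fell from 2042 to 965, with 1561 in DRB3-OE, and was called under all 6 settings. AT4G33150, for the first enzyme of lysine breakdown, read 397, 839 and 1107 on the wild-type, DRB2-OE and DRB3-OE arrays, and was called under all 6 settings too.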
